A study of Homo sapiens with 2 samples.

Results

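Neuronal nicotinic acetylcholine receptor subunits were examined in the NeuroD1 ChIP-seq of IMR-32 cells, a human neuroblastoma cell line of the WT genotype with amplified MYCN. The 8 subunit genes were CHRNA3, CHRNA4, CHRNA5, CHRNA6, CHRNA7, CHRNB2, CHRNB3 and CHRNB4, and a NeuroD1 peak was assigned to a gene when it overlapped the RefSeq body of the gene or lay within 20 kb of either end. Of the 6183 peaks in the list, 5 met this rule, and all 5 lay at the cluster of CHRNA5, CHRNA3 and CHRNB4 on chromosome 15. These 3 of the 8 genes had a peak, where 29.7% of all protein-coding genes had one, and no peak was assigned to the other 5. The study made 1 library from NeuroD1 ChIP and 1 from input chromatin, which skips the antibody step and was not analysed here. With 1 ChIP library and no replicate, the values describe this library and no test between conditions could be made. NeuroD1 is the target given in the labels of the ChIP library, with a NeuroD1 antibody that is also in the antibody list of the study. The written ChIP procedure names an antibody to H3K27Ac, a mark that the study mapped in a separate CUT&Tag experiment, and the peaks were used as labelled. A motif search in the peaks and ChIP-qPCR for NeuroD1, which the study also ran, were not used here.

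Nicotinic receptors are ligand-gated cation channels made of 5 subunits that open when acetylcholine binds at the border of an alpha subunit with its neighbour. In autonomic ganglia, and so in the sympathetic lineage from which neuroblastoma arises, fast transmission runs mainly through receptors of the alpha 3 and beta 4 subunits, with alpha 5 as an accessory subunit. In the brain the main receptors are built from alpha 4 with beta 2 and from alpha 7 alone, while alpha 6 and beta 3 join others mostly in dopaminergic and visual pathways. NeuroD1 is a bHLH transcription factor of developing neurons that binds, with an E protein partner, to short DNA words called E-boxes, which read CANNTG.

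The bases just upstream of CHRNB4, which encodes the beta 4 subunit, and of CHRNA3, which encodes the alpha 3 subunit, are shown because the first lay inside a NeuroD1 peak and the second, its neighbour in the cluster, did not. Both are the 250 bases before a transcription start, from the RefSeq promoter set of GRCh38.p14, the build to which the peaks refer, and both genes are read from the minus strand. The CHRNB4 stretch is chr15:78641211-78641460 and the CHRNA3 stretch is chr15:78620997-78621246. Each is written 5′ to 3′ with every CANNTG word in capitals.
CHRNB4: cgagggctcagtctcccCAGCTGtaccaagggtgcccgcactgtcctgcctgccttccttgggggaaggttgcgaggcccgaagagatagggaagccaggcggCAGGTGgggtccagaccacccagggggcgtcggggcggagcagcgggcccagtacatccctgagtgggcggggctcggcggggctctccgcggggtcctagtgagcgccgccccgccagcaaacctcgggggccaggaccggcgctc
CHRNA3: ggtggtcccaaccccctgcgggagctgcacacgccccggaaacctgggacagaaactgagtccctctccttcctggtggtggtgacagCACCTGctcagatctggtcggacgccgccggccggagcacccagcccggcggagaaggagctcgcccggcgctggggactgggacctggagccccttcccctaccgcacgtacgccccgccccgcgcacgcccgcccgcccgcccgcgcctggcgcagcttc
The CHRNB4 stretch held 2 E-boxes, CAGCTG from 233 to 228 bases and CAGGTG from 147 to 142 bases before the start. The CHRNA3 stretch held 1, CACCTG from 162 to 157 bases before its start.

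A NeuroD1 peak covered the whole CHRNB4 stretch. It ran over 433 bp, from 78641067 to 78641499 on chromosome 15, and its summit at 78641308 was 98 bp upstream of the start site at 78641210. Fold enrichment, the ratio of ChIP reads at the summit to the local background with 1 added to each, was 11.99 here (95% interval 8.58 to 16.3). The reads behind such values were solved from the deposited values, and this summit held 38 reads (26.9 to 52.2) over a background of 2.19, with a −log10 q of 27.8. These and all later intervals of fold enrichment and reads are exact Poisson intervals of the reads at 95%. They hold the background fixed and cover counting error of the ChIP reads only. CAGGTG lay 44 bp from the summit and CAGCTG 130 bp from it. Among genes in the RefSeq promoter set, 9.55% had a start window under a peak, where the window reached from 250 bases before to 50 bases after the start. Of the 4 subunit genes found in that set, CHRNA3, CHRNA7, CHRNB2 and CHRNB4, this held for CHRNB4.

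The same E-box words were common in promoters at large. CANNTG occurred in 61.8% of all 35116 promoter stretches of 250 bases, and 28.3% held at least as many as CHRNB4. CAGCTG, which reads the same on both strands, occurred in 14.0% of them, and CAGGTG or its reverse complement CACCTG in 17.5%. Among the 2921 stretches under a peak, CAGCTG was found in 14.4% and CAGGTG or CACCTG in 12.1%, against 13.9% and 18.0% of the 32195 stretches not under a peak. The words preferred by NeuroD1 in many cell types, CAGATG and its reverse complement CATCTG, occurred in 7.36% of stretches under a peak and 12.6% of the others, and in none of the subunit stretches. Any CANNTG word was found in 49.6% of the stretches under a peak and in 62.9% of the others. CACGTG, the word in the CHRNA7 stretches, went the other way, with 9.17% under a peak and 6.09% of the others. Stretches under a peak had a mean GC content of 67.4%, against 57.2% over all stretches. The 5 stretches of the subunit genes had 72.4% GC at CHRNB4, 73.6% at CHRNA3, 60.4% at CHRNB2, and 80.4% and 79.2% at the 2 starts of CHRNA7. A stretch was set as under a peak by its start window, and its whole length was searched whether or not the peak covered it. The word shares are therefore not shares of the bases under peaks. They cover promoters alone, since peaks at other sites were not searched. The part of base composition in the word counts was not tested. A match of letters is a description of the sequence and does not mark a bound site.

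**Figure D1:**
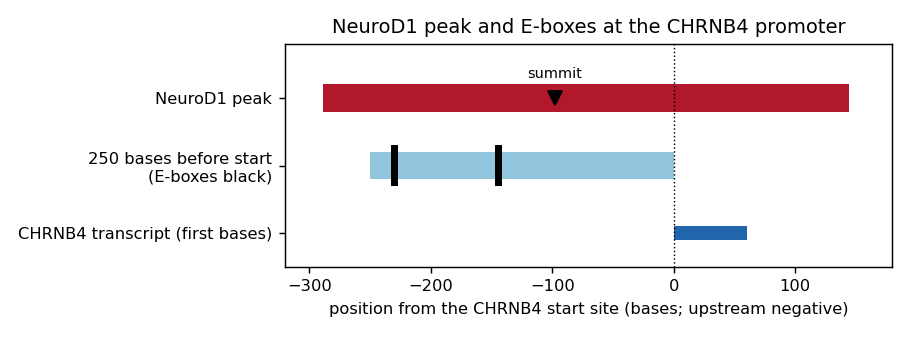
NeuroD1 peak at the CHRNB4 promoter, plotted by distance in bases from the CHRNB4 start site of the RefSeq promoter set, with upstream positions negative. The red bar is the 433 bp peak, the triangle is its summit 98 bp upstream, the light blue bar is the stretch of 250 bases before the start, and the black marks are its 2 E-boxes, both inside the peak.

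The strongest NeuroD1 peak of the cluster was not at a promoter but far upstream of CHRNB4. It spanned 564 bp, from 78681590 to 78682153, with a summit at 78681834, 40.6 kb upstream of the CHRNB4 start. Its fold enrichment was 28.8 (22.9 to 35.8), from 79 reads (62.5 to 98.5) over a background of 1.72, and its −log10 q was 91.4. It ranked 28 of 6183 by fold enrichment and 27 by −log10 q, and only 0.453% of peaks had a fold enrichment as high. At the ends of its interval the rank would be 16 and 59. Its interval overlapped that of no other peak of the cluster. This concerns counting error of the ChIP reads alone, since the background was held fixed. The peak was also picked as the highest of the cluster, so its excess was not tested. It was 2.40 times as high as the CHRNB4 promoter peak.

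A second distal peak lay between that site and the gene. It covered 758 bp, from 78671489 to 78672246, and was the widest of the cluster, at rank 36 of the list by width against a median of 220 bp. The fold enrichment at its summit, 78671881, was 14.4 (10.7 to 19.2), from 46 reads (33.7 to 61.4) over a background of 2.19, with a −log10 q of 37.9. The summit was 30.7 kb upstream of the CHRNB4 start and 9953 bp from the summit of the strongest peak. Its interval overlapped that of the promoter peak, so counting error did not separate these 2 sites. The strongest and this second distal peak overlapped no annotated gene, and CHRNB4 was the nearest protein-coding gene to both. The lncRNA gene LOC105370913 was nearer to the strongest peak, at 10423 bp against 19949 bp for the end of the CHRNB4 body.

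A weaker peak lay inside CHRNB4, at 78637967 to 78638189, with a summit at 78638050 that was 3160 bp downstream of the start. Its fold enrichment was 8.96 (5.76 to 13.4), from 22 reads (13.8 to 33.3) over a background of 1.52, and its −log10 q was 13.4. This was also the one peak within 20 kb of CHRNA3, whose body ended 16971 bp away. CHRNA3 had no peak in its own body. The CHRNB4 promoter peak was 20071 bp from CHRNA3 and so fell just outside its window.

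CHRNA5, which encodes the accessory alpha 5 subunit and is transcribed in the opposite direction to CHRNA3 and CHRNB4, had the weakest peak of the cluster. The peak ran from 78565472 to 78565642 across the 5′ end of the gene, with its summit 59 bp inside the body. Its fold enrichment was 5.71 (3.35 to 9.17), from 15 reads (8.40 to 24.7) over a background of 1.75, and its −log10 q was 5.46. That was below the list's median fold enrichment of 6.79, and 77.4% of peaks were as high or higher. It was the only NeuroD1 peak within 20 kb of CHRNA5. The protein-coding gene PSMA4 lay 13055 bp from this peak, also within 20 kb. The strongest peak of the cluster was 5.05 times as high, and the second distal peak also had an interval clear of it.

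**Figure D2:**
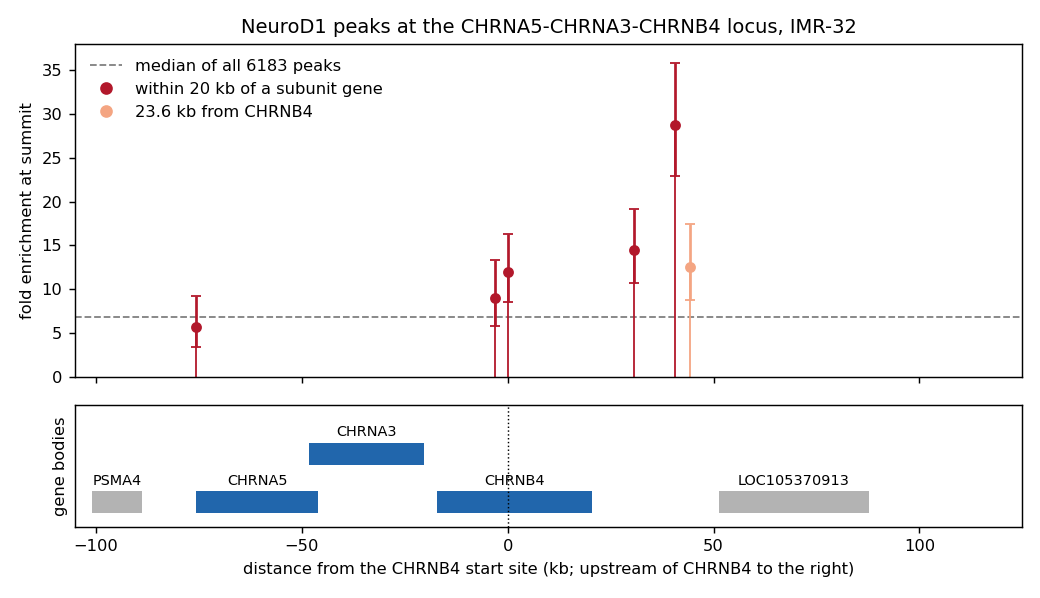
NeuroD1 peaks at the CHRNA5-CHRNA3-CHRNB4 locus. The upper panel plots fold enrichment at each summit against the distance in kb from the CHRNB4 start site, with upstream to the right, bars for the 95% Poisson interval of the reads and a dashed line at the median of 6.79 over all peaks; the lower panel shows gene bodies, with the 5 peaks rising from 5.71 at CHRNA5 to 28.8 at 40.6 kb upstream of CHRNB4.

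The 20 kb rule met 2 borders at this locus. The strongest peak began 19949 bp beyond the CHRNB4 body and was counted, although its summit, 20193 bp away, lay outside. The next peak began 23611 bp beyond the body and was not counted. It ran from 78685252 to 78685738, with a fold enrichment of 12.5 (8.73 to 17.4) from 33 reads (22.7 to 46.3), and its summit was 3650 bp beyond that of the strongest peak and 44.3 kb upstream of the CHRNB4 start. The body of CHRNB4 in the RefSeq gene set, from 78624111 to 78661641, reached 20431 bp beyond the start site in the promoter set, and it ended on the same base as the pseudogene RPL18P11. With the body ended at that start site, CHRNB4 kept 2 of its 4 peaks and the cluster 3 of its 5, and both distal peaks dropped out. Their assignment to CHRNB4 is therefore by distance to an annotated end, and no measurement of contact or expression in these data ties them to a gene.

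As one locus, the cluster held 5 peaks in a merged window of 136 kb, or 3.67 peaks per 100 kb. The windows of all protein-coding genes held, as a union, 0.311 per 100 kb. The median fold enrichment of the 5 peaks was 11.99, 4 of the 5 were above the upper quartile of the list, 8.68, and 2 were above its 95th percentile, 13.8. By the number of peaks within 20 kb, CHRNB4 with 4 belonged to the 217 of 20037 protein-coding genes, 1.08%, that had 4 or more. It ranked 46 among protein-coding genes by its highest peak, whereas CHRNA3 ranked 1747 and CHRNA5 ranked 5016 of the 5944 with a peak. The count and rank of CHRNB4 rest on the annotated end of its body. With the body ended at the promoter-set start, it kept 2 peaks and lost both distal ones. The rank of CHRNA3 rests on the 20 kb border, as the CHRNB4 promoter peak, at 11.99, was 20071 bp from it and not counted.

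**Figure D3:**
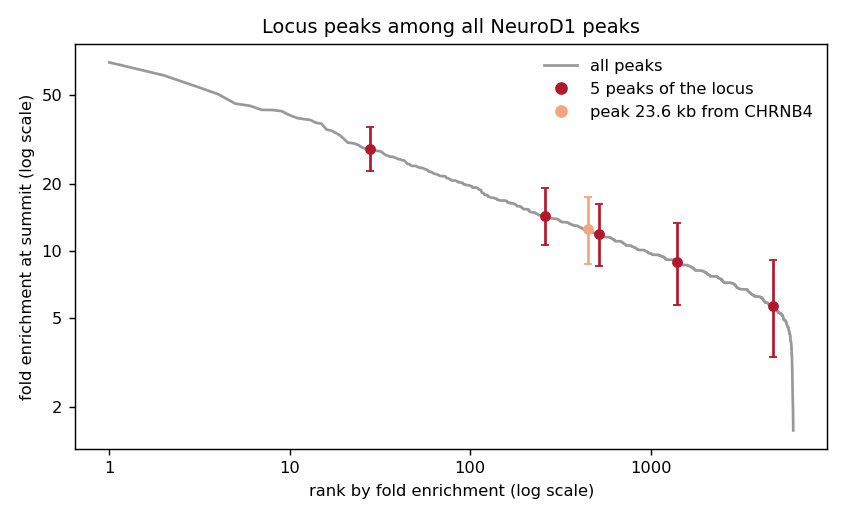
Fold enrichment of all 6183 NeuroD1 peaks against their rank, both on log scales, with the 5 peaks of the CHRNA5-CHRNA3-CHRNB4 locus in red and the peak 23611 bp from CHRNB4 in light orange, with 95% Poisson intervals of the reads. The highest locus peak is at rank 28 and the lowest at rank 4775.

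Across the family, 3 of the 8 subunit genes, 37.5%, had a peak within 20 kb, and 29.7% of all protein-coding genes did (exact Clopper-Pearson interval 29.0% to 30.3%). A peak overlapped the body of 2 of the 8, CHRNA5 and CHRNB4, against 16.0% of protein-coding genes. As the 3 genes are neighbours with overlapping windows, they make 1 locus with peaks out of 5 loci, and the share of genes with a peak was near that of genes at large. Each other locus had none, over windows that summed to 404 kb.

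The subunits of the main brain receptors had no peak within 20 kb. CHRNA4 on chromosome 20, which encodes the alpha 4 subunit, lay at 63343223 to 63361349, and its nearest peak was 88.5 kb away with a fold enrichment of 10.4 from 25 reads. CHRNB2 on chromosome 1, which encodes its partner beta 2, lay at 154567778 to 154580013, and its nearest peak was 86.5 kb away with a fold enrichment of 6.03 from 15 reads. Both distances were close to the median of 94.9 kb over protein-coding genes, and 48.7% and 48.3% of those genes had a nearer peak. CHRNA7, which encodes the alpha 7 subunit of homomeric receptors, has a body of 142.5 kb on chromosome 15 and was the member farthest from any peak. Its nearest peak was 988 kb away, with a fold enrichment of 4.83 from 9 reads, and 90.2% of protein-coding genes had a nearer one. Part of CHRNA7 is duplicated in the fusion gene CHRFAM7A, so reads there can match both copies. Whether such reads were kept is not given in the sources used here.

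CHRNA6 and CHRNB3, which encode alpha 6 and beta 3 and are neighbours on chromosome 8, also had none within 20 kb. Their windows merged to 111 kb, and they shared a nearest peak with a fold enrichment of 8.68 from 17 reads, 287 kb from CHRNA6 and 319 kb from CHRNB3. Of protein-coding genes, 71.0% and 73.0% had a nearer peak. A peak list holds only sites past the caller's threshold, so a gene with no peak may still have had reads below it. The weakest sites of this list rested on 8 reads.

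**Figure D4:**
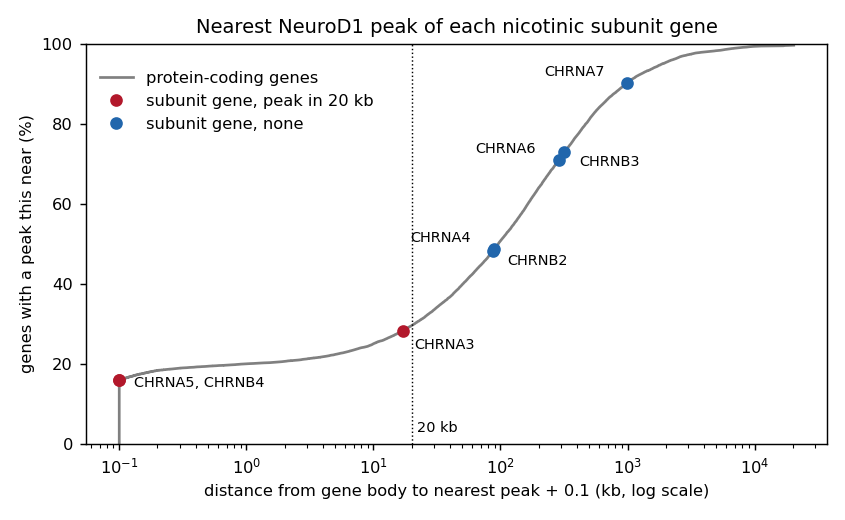
Distance in kb from each gene body to its nearest NeuroD1 peak, with 0.1 kb added and on a log scale, against the percentage of protein-coding genes with a peak that near or nearer. CHRNA5, CHRNB4 and CHRNA3 (red) have a peak within 20 kb (dotted line), and CHRNA4, CHRNB2, CHRNA6, CHRNB3 and CHRNA7 (blue) lie from 86.5 to 988 kb from theirs.

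Other genes of cholinergic signalling were looked at by the same rule, by which 29.7% of all protein-coding genes had a peak. None of 9 other nicotinic subunit genes had a peak within 20 kb: CHRNA1, CHRNB1, CHRND, CHRNE and CHRNG of the muscle receptor, CHRNA2, CHRNA9, CHRNA10 and the fusion gene CHRFAM7A. None of 11 genes for receptor assembly and accessory proteins had one, among them RIC3, a chaperone of alpha 7, and LYNX1, a membrane-bound modulator of nicotinic receptors. Of 5 muscarinic receptor genes, 1 had a peak, or 20%. This was CHRM1, with a fold enrichment of 7.19 (4.58 to 10.8) from 21 reads, 6161 bp from the gene. Of 7 genes for acetylcholine synthesis, transport and breakdown, 2 had peaks, or 28.6%. CHAT, the enzyme that makes acetylcholine, had 3 peaks in its body, with fold enrichments of 5.79, 5.56 and 5.19 from 11, 16 and 12 reads. SLC18A3, the vesicular acetylcholine transporter whose gene lies within an intron of CHAT, shared the first 2 of these peaks, and the first lay 52 bp from it. All 3 were below the median fold enrichment of the list, whereas 4 of the 5 peaks of the CHRNA5-CHRNA3-CHRNB4 locus were above it.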

How the data were processed

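NeuroD1 ChIP-seq and input libraries of IMR-32 cells, 1 each, were sequenced in the study, and the peaks of the former were analysed. The submitters' processing notes name hg38, BWA 0.7.17 and MACS2 2.2.7, while the deposited peak names hold macs3. Which control and which q threshold were applied is not given in the sources used here. For each peak the authors deposited a fold enrichment (a ratio at the summit over local background), −log10 values of p and q, a score made from the −log10 q, the summit offset, and a last score equal to the fold divided by the width. Column units were checked on the values.

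ChIP reads and background at each summit were solved from the deposited fold and −log10 p. A weight of 0.9801 for 1 read was found from the file itself: it solved 100% of 310 peaks in a scan, against 44.84% for the next best weight, and then all 6183 peaks. On 400 simulated peaks the solver was tested and gave back the true reads of 100%. Those peaks were made with the formula and weight that the solver inverts. The result checks the code and not whether the deposited values follow that formula. Summit reads had a median of 17, from 8 to 272. Library totals are unknown, and peak reads may include PCR copies.

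Gene bodies and promoters came from RefSeq GRCh38.p14, with 20037 protein-coding genes. The genes named were the 8 members, the genes that neighbour their peaks, and 4 lists of cholinergic genes, with values for the highest peaks of a list. Members, lists and comparisons were chosen with earlier results of these data known. Alternatives were other distances, a −log10 q or fold of at least 5, summit in place of interval, and rank by −log10 q or p. Peak sequences were not used here, so the planned share of summits with an E-box was not run, and E-boxes were counted in RefSeq promoters instead, a step chosen after the data were seen. The work was done in Python 3.11.15 with scipy 1.17.1, pandas 2.3.3, matplotlib 3.10.9 and numpy 2.4.6.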

Additional observations from a re-analysis of the deposited data

How the results depend on the processing

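With 1 ChIP library, no replicate could be left out. No paired analysis was possible because there was 1 ChIP library and no second group with a peak list. The count of 5 peaks at the subunit genes, all at the CHRNA5-CHRNA3-CHRNB4 locus, fell to 3 with the gene body only, to 3 with 5 kb on each side, and to 3 with CHRNB4 ended at its promoter-table start. In each of these the 2 distal peaks dropped out, and the highest remaining peak was the CHRNB4 promoter peak at rank 520 in place of 28. With the summit required inside the window, 4 peaks were left and the highest was at rank 260. The locus had 6 peaks at 25 kb and at 50 kb, and 5 at a −log10 q or a fold of at least 5. Subunit genes with a peak numbered 2 in place of 3 with the gene body only and at 5 kb, and 3 under the other settings. Peaks per 100 kb of the locus, 3.67, ranged from 2.83 to 4.11 over the other distances and the −log10 q and fold limits. That density was not computed with CHRNB4 shortened, where the count fell to 3, or with the summit required inside the window. The other 5 subunit genes had no peak at any distance up to 50 kb. The share of protein-coding genes with a peak, 29.7%, was 16.0% with the gene body only, 22.5% at 5 kb, 31.6% at 25 kb, 39.9% at 50 kb, 24.4% at a −log10 q of at least 5 and 27.6% at a fold of at least 5. The 25 kb distance, the shortened CHRNB4 and the ranks under other distances were chosen after seeing the data. The planned share of summits with an E-box and its alternatives were not run, since no genome sequence was used. Depth limits what a missing peak means: the weakest sites rested on 8 reads, and fewer reads at a subunit gene would not be listed. The call also depends on the local background, so 8 or more reads over a higher background could be unlisted too.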

Other observations

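The NeuroD1 peaks around the CHRNA5-CHRNA3-CHRNB4 locus were compared with the other peaks within 250 kb of it. IREB2, an iron-responsive RNA-binding protein gene on the CHRNA5 side, had 2 peaks in its body, with fold enrichments of 7.85 and 7.52 from 23 and 22 reads. On the far side of the distal peaks, a peak of fold enrichment 6.55 from 16 reads lay 61 bp from the metalloprotease gene ADAMTS7, and MORF4L1, a chromatin protein gene, held one of 7.15 from 18 reads. Near CRABP1, a retinoic acid binding protein gene, 2 peaks had 4.91 and 5.88. All of these were lower than the 3 highest peaks assigned to CHRNB4 (28.8, 14.4 and 11.99). The peak inside CHRNB4, at 8.96, was above them too. The CHRNA5 peak of the same locus, at 5.71, was below all of them but the one of 4.91.

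Within 3650 bp of the strongest peak stood the peak of fold enrichment 12.5 that the 20 kb rule left out. With it, 4 peaks at least as high as the promoter peak lay within 44.7 kb of each other at CHRNB4. Among the 520 peaks that high, no other 4 lay as close together. Both limits were set from the values at this locus, so this is a description of it and holds no test. At rounder limits the place was less alone: 4 peaks of fold enrichment at least 10 within 50 kb occurred at 1 place, CHRNB4, but within 100 kb at 6 places, and 4 of at least 8 occurred at 5 places within 50 kb and at 15 within 100 kb. At a limit of 12 no place had 4, since the promoter peak lay at 11.99.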
